A study of Mus musculus with 22 samples.

Results

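Col1a1, Col1a2, Col3a1, Dcn, Lum, Fbln5, Postn, Thy1 and Acta2, 9 transcripts that are used as signs of fibroblasts or of the loose matrix that fibroblasts lay down, were followed in mouse stem cell lines and in single blastocyst-stage embryos. They were taken by gene symbol, without reference to their levels, and all 9 were found among the 21881 genes of the count table. XEN cells were represented by 2 male lines, TS cells by 2 female lines (1 and 2) and 1 male line (3), and ES cells by 1 female line (1) and 1 male line (2) that the labels call serum free. Each line carried wild-type Nanog and was sequenced from 2 passages, which the labels call technical replicates; passages 1 and 2 are named here by replicate number, which gives no order in time. The embryos, at embryonic day 3.5, were 4 Nanog knockouts (called null here), 2 heterozygous and 2 wild-type embryos, each group equally divided between female and male. The question was whether the 9 transcripts vary together from library to library or each on its own. The labels give no strain, feeder layer or medium for the TS and XEN lines, and do not say how the knockout allele was made.

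ES cells are cultured from the embryo's pluripotent epiblast, TS cells from its trophectoderm and XEN cells from its primitive endoderm. Fibroblasts secrete an interstitial matrix built on fibrillar collagens. Type I collagen is assembled from the chains encoded by Col1a1 and Col1a2, and type III collagen from the product of Col3a1 alone. Decorin (Dcn) and lumican (Lum) are small proteoglycans that bind collagen fibrils, fibulin 5 (Fbln5) serves elastic fibre assembly, and periostin (Postn) is a matricellular protein of remodelling connective tissue. Thy1 is a cell surface glycoprotein found on fibroblasts and also on T cells and neurons, and Acta2 encodes smooth muscle alpha-actin, a contractile actin of smooth muscle and myofibroblasts. TS cells are commonly grown on mitotically inactive fibroblasts or in medium that such cells have conditioned.

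RefSeq promoters on GRCm38.p6 were held for 5 of the 9 genes. The 250 bases before the transcription start are given for a pair of collagen genes that moved together in TS libraries and for Acta2, which was present in every library. Capitals mark matches, on either strand, to the CCAAT box, to the TATA box sequence TATAAA, to the MCAT element CATTCC and to the GC box core GGGCGG; no match overlapped another. Col1a2 lies on the plus strand (chr6:4505368-4505617), Col3a1 on the plus strand (chr1:45311288-45311537) and Acta2 on the minus strand (chr19:34255374-34255623), and each is written 5′ to 3′.
Col1a2: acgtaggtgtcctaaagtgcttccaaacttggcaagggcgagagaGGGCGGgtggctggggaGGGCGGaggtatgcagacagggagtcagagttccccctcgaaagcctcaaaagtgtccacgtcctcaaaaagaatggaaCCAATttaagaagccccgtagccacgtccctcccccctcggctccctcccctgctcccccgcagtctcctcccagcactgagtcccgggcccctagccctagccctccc
Col3a1: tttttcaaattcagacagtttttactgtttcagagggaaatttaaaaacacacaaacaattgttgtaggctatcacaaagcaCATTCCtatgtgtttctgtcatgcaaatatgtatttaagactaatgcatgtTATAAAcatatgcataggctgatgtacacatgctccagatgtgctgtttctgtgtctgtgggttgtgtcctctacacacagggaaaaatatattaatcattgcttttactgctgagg
Acta2: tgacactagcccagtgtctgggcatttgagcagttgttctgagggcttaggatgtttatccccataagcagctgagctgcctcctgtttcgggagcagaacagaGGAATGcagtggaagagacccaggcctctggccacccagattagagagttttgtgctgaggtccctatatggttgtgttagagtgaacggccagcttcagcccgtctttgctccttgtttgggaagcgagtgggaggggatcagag
The Col1a2 window held CCAAT at -109 to -105 from the start, a sequence present on one strand or the other in 33.8% of 32851 RefSeq promoter windows of this length, and 2 copies of GGGCGG, present in 32.7%. The Col3a1 window held TATAAA at -117 to -112 (12.4% of windows) and CATTCC at -168 to -163 (12.6%), and the Acta2 window held CATTCC on the opposite strand at -146 to -141. None of the 3 windows held an exact CArG box, a binding sequence of serum response factor, which 1.47% of windows held. Inexact forms of this box were not searched for, and the Acta2 window holds ccctatatgg and ccttgtttgg, which resemble it. The Col1a2 and Col3a1 windows shared none of these motifs.

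Library totals, in units of 1000000 counts, were 8.20 to 23.7 in the 14 line libraries and 14.8 to 32.2 in the 8 embryos. Levels are given as CPM, counts per 1000000 counts of the library, which do not allow for transcript length. The lineage labels held: Gata6 averaged 306.4 ± 76.8 CPM in XEN lines (SD, n = 2) and reached at most 4.07 CPM in other line libraries, Cdx2 stood at 68.1 to 144.3 CPM in TS libraries and at most 11.1 CPM elsewhere, and Pou5f1 at 1525 to 1782 CPM in ES libraries and at most 8.16 CPM elsewhere. Nanog, the targeted gene, ranged over 6 to 12 counts among null embryos and 791 to 3456 counts among heterozygous and wild-type embryos. XEN line 2 passage 1 stood apart within XEN cells, and TS line 2 passage 1 within TS cells, and the calls that rest on them are given with and without them. Null embryos F2 and M2 stood apart from the other 6 in the genes described last.

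The 9 transcripts fell into separate patterns over the 14 line libraries. The 3 collagen transcripts and Fbln5 were highest in TS libraries, where 1 library stood above the others. Postn was present in all TS libraries and was highest in 1 XEN library. Thy1 was present in TS and ES libraries and nearly absent from XEN libraries. Acta2 stood at 28.5 CPM or more in all of them. Dcn and Lum, the fibroblast proteoglycans, were almost undetected: Lum had 1 count over the 14 libraries, and Dcn had 8 counts in XEN line 2 passage 1, 6 in TS line 2 passage 1, 1 in TS line 2 passage 2 and 0 in the other 11.

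**Figure D1:**
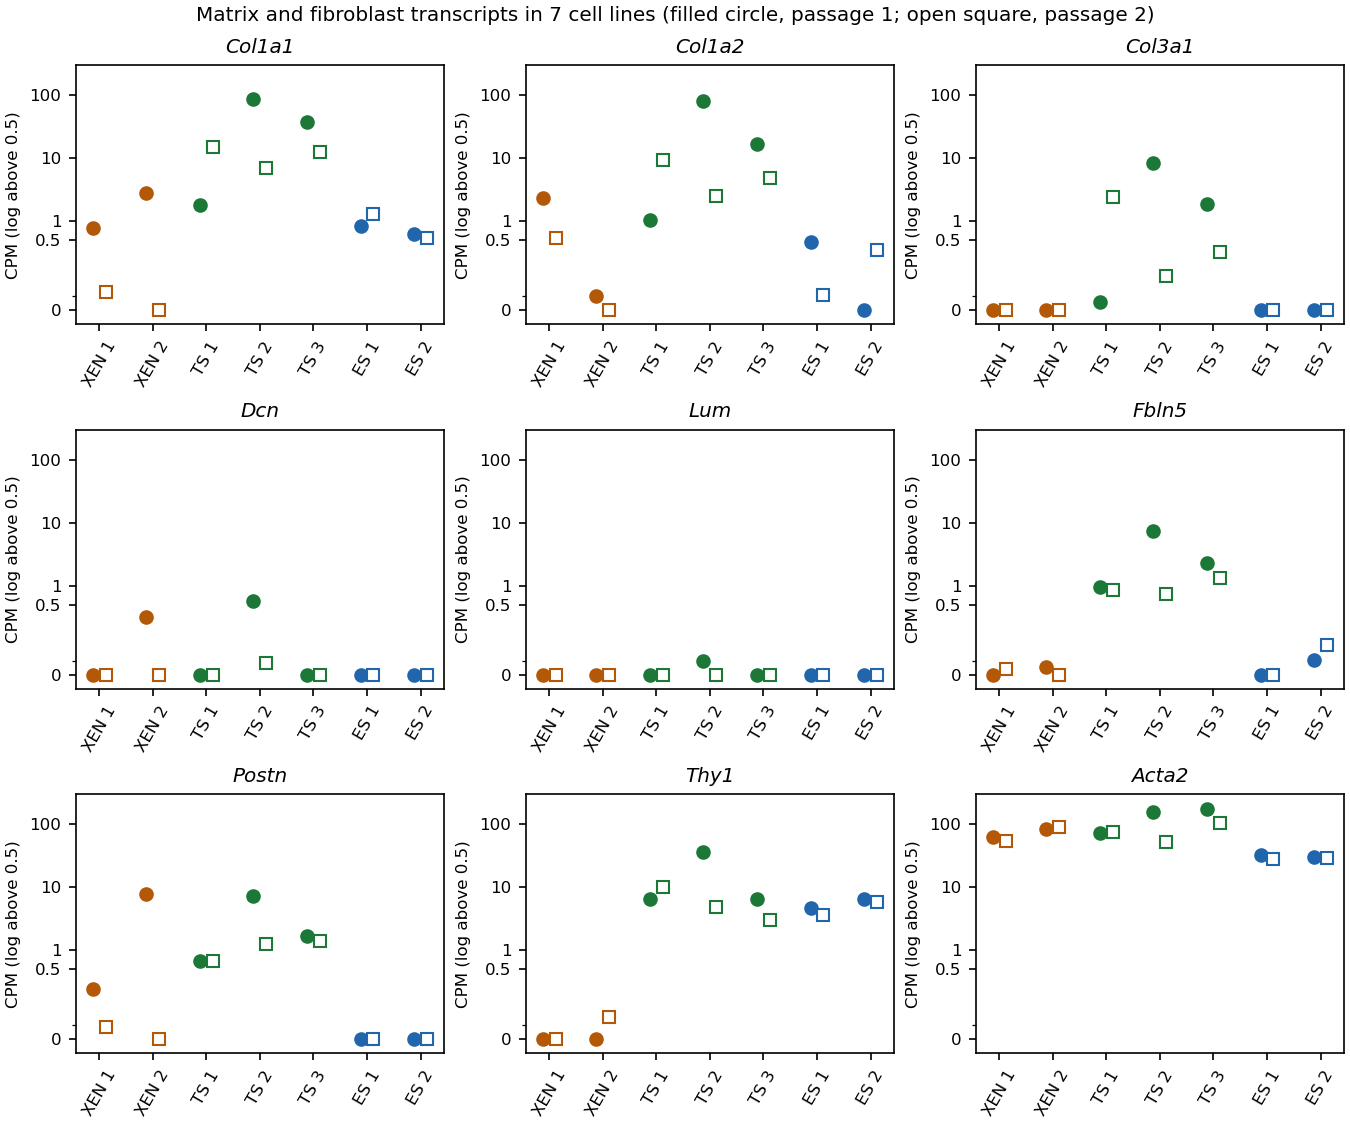
CPM (linear below 0.5, logarithmic above) of each of the 9 transcripts in the 14 cell line libraries, 1 point per library (filled circle, passage 1; open square, passage 2). Col1a1, Col1a2, Col3a1, Fbln5 and Thy1 reached their highest values, 86.9, 79.8, 8.48, 7.52 and 35.7 CPM, in TS line 2 passage 1, while Acta2 lay between 28.5 and 173.1 CPM throughout.

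Col1a1 had 1.82 and 14.9 CPM in passages 1 and 2 of TS line 1, 86.9 and 7.002 CPM in TS line 2, and 37.9 and 12.4 CPM in TS line 3, against 0.854 and 1.301 CPM in ES line 1 and 0.628 and 0.534 CPM in ES line 2. Every TS library lay above every ES library. Col1a2 had 1.03 and 9.51 CPM in TS line 1, 79.8 and 2.47 CPM in TS line 2, and 16.8 and 4.89 CPM in TS line 3, against 0.488, 0.108, 0 and 0.427 CPM in the ES libraries. Its groups did not overlap either, and the share of all genes separated in this way was not counted. Col3a1 had 1 and 39 counts in TS line 1, 88 and 3 in TS line 2, and 19 and 5 in TS line 3, against 0 in each ES library. Pooled over libraries, Col3a1 was at least 24.3-fold higher in TS than in ES cells, taking 3 counts over the ES group as the floor; 88 of its 155 TS counts lay in TS line 2 passage 1, and without that library the bound was 12.1-fold.

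Fbln5 had 0.971 and 0.864 CPM in TS line 1, 7.52 and 0.741 CPM in TS line 2, and 2.31 and 1.33 CPM in TS line 3, against 3 counts over the 4 ES libraries. Postn had 11 and 11 counts in TS line 1, 74 and 15 in TS line 2, and 17 and 17 in TS line 3, against 0 in each ES library. That made Postn at least 22.7-fold higher in TS cells by the same floor, and at least 12.9-fold higher without TS line 2 passage 1. Both transcripts were thus present in every TS library, and outside TS line 2 passage 1 Fbln5 ranged from 0.741 to 2.31 CPM and Postn from 0.667 to 1.71 CPM.

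The lines were taken as the replicates, with the counts of their 2 passages summed, and tested with edgeR's quasi-likelihood test. Of the 9 transcripts 7 passed the filter on low counts; Dcn and Lum did not. The log2 fold change of TS over ES lines was 4.97 for Col1a1 (SE 0.999, adjusted p = 0.00743), 6.18 for Col1a2 (SE 1.47, adjusted p = 0.0143) and 4.71 for Fbln5 (SE 1.14, adjusted p = 0.0149), and all 3 rose. Col3a1 (fitted log2 fold change 8.69, adjusted p = 0.0114) and Postn (8.65, adjusted p = 0.0426) also passed. With no ES counts, the size of those 2 fitted values depends on the prior count and is no bound. Acta2 rose by 1.87 (SE 0.335, adjusted p = 0.00488), and Thy1 did not pass (1.10, SE 0.704, adjusted p = 0.242).

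Of the 7 tested transcripts 6 were therefore called higher in TS lines, where 21.3% of the 14687 tested genes were called higher and 41.3% in either direction. Col1a2, Col3a1, Fbln5 and Postn passed the filter through libraries in which they were high, so the count carries no weight of its own. With ES line 1 left out, 1 of the 6 calls remained, and with ES line 2 left out 2 remained; those fits assume that the lone ES line varies like the other groups. The log2 fold change in them was 5.52 and 4.57 for Col1a1, 6.43 and 5.95 for Col1a2 and 8.75 and 8.73 for Col3a1. Postn alone was not called without TS line 2 (adjusted p = 0.0828) or without TS line 3 (adjusted p = 0.0725). Without TS line 2 passage 1 all 6 transcripts were still called, with smaller log2 fold changes for Col1a2 (4.66), Col1a1 (4.07) and Fbln5 (3.83). With passage 1 libraries alone 4 were called, without Col3a1 (adjusted p = 0.0860) and Postn (adjusted p = 0.0618). With passage 2 libraries alone 4 were also called, without Fbln5 (3.10, adjusted p = 0.0671), and Col3a1 was under the filter on low counts. The median of the 7 log2 fold changes was 4.97, against 0.02 over all tested genes, and carries no more weight than the count. Sex could not be separated from line in these groups. The ES lines alone are labelled serum free, so any difference in medium could not be told apart from lineage in comparisons with ES lines. In a bulk library a change in the number of cells of a type cannot be told apart from a change in RNA per cell.

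**Figure D2:**
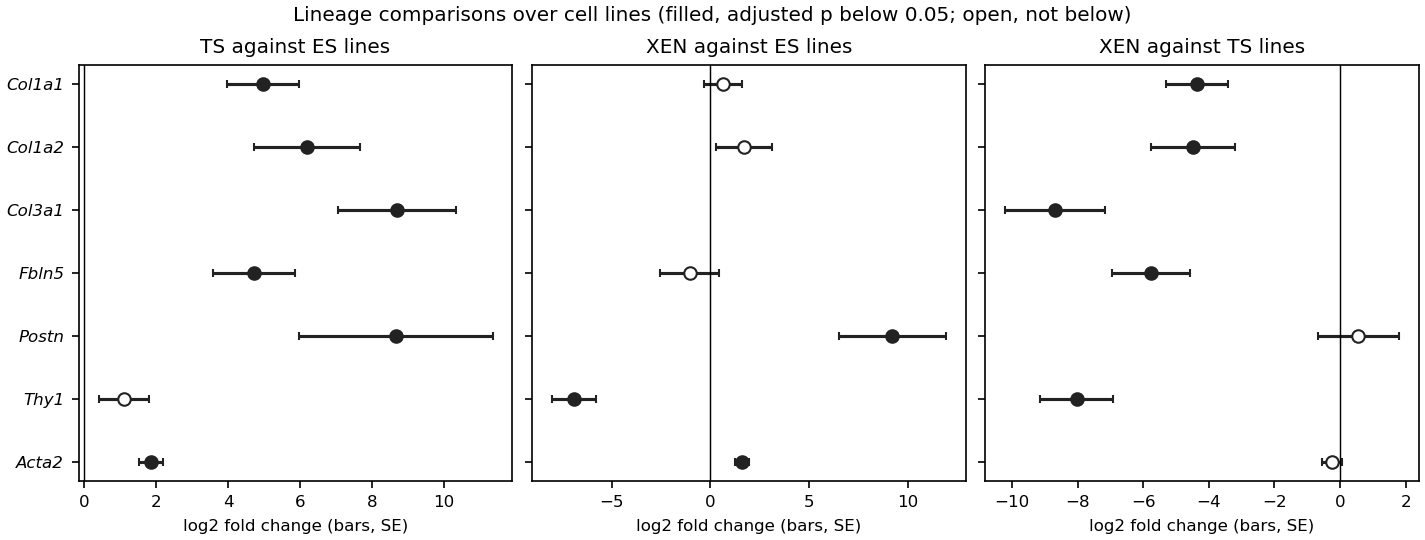
Log2 fold change (x axis; bars, SE) of the 7 tested transcripts between lineages, with lines as replicates (TS 3, XEN 2, ES 2); filled points had an adjusted p below 0.05 in edgeR's quasi-likelihood test. Col1a1, Col1a2, Col3a1 and Fbln5 were called higher in TS against ES lines and lower in XEN against TS lines, while Acta2 was called higher in both TS and XEN lines against ES lines. The comparisons share lines, and for Col3a1 and Postn the sizes against groups with no counts are not bounds.

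Within the TS lines the transcripts moved between passages, and the direction differed by line. In TS line 2 all 7 were higher in passage 1. The passage 1 to passage 2 ratio was 12.4 for Col1a1 (exact 95% counting interval 9.92 to 15.7), 32.3 for Col1a2 (22.5 to 48.2) and 34.3 for Col3a1 (11.4 to 169.6). It was 10.1 for Fbln5 (5.08 to 23.0), 7.34 for Thy1 (5.56 to 9.83) and 5.77 for Postn (3.28 to 10.8), and smallest for Acta2, at 2.99 (2.73 to 3.28). Of the 7 transcripts 6 were at least 4-fold higher, against 1.65% of the 13714 genes with at least 10 counts in the 2 libraries together. These intervals cover counting error only, and each ratio compares 2 libraries.

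In TS line 1 the collagens were higher in passage 2. Passage 2 exceeded passage 1 in Col1a1 by 8.21-fold (5.60 to 12.4), in Col1a2 by 9.22-fold (5.57 to 16.2) and in Col3a1 with 39 counts against 1, a ratio of 39.7 (6.72 to 1607). These 3 of the 7 were at least 4-fold higher in passage 2, against 0.98% of 13781 genes. Fbln5, Postn and Acta2 had passage 1 to passage 2 ratios of 1.12, 0.983 and 0.972, with intervals that spanned 1, and Thy1 had 0.645 (0.502 to 0.827). In TS line 3 the ratio was 3.05 for Col1a1 (2.52 to 3.71), 3.43 for Col1a2 (2.53 to 4.69) and 4.601 for Col3a1 (1.66 to 15.8), against 2.13 for Thy1 and 1.68 for Acta2; Col3a1 was the 1 of 7 past 4-fold, as were 0.614% of 13354 genes. The intervals of Fbln5 (0.880 to 3.53) and Postn (0.581 to 2.52) spanned 1 there.

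**Figure D3:**
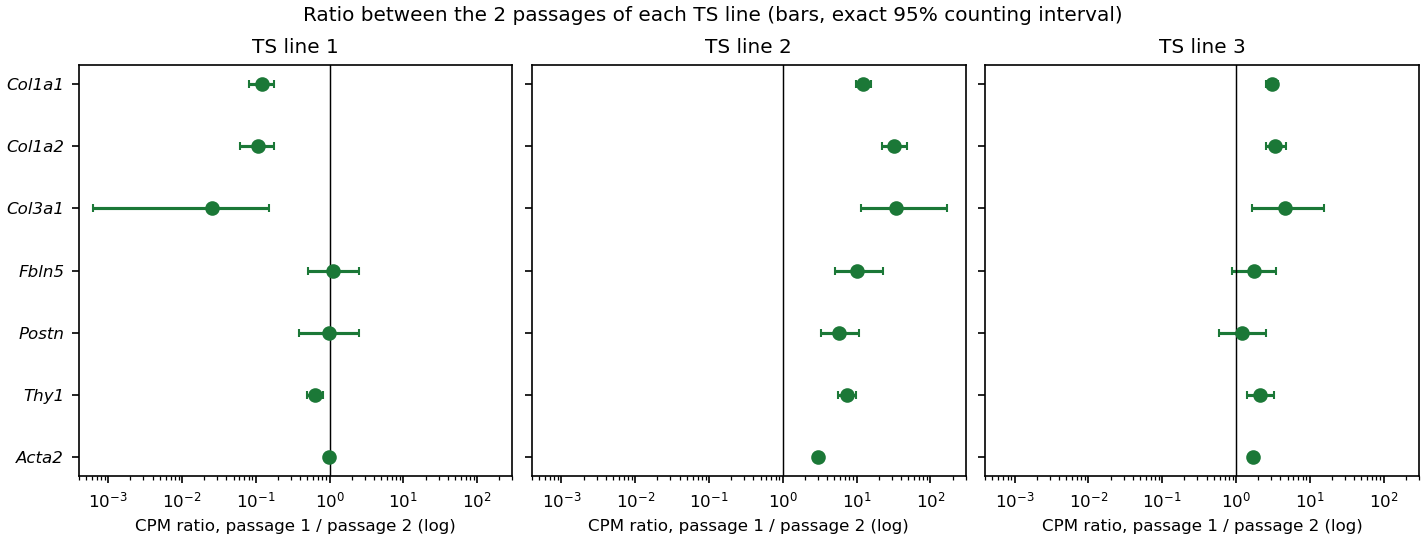
CPM ratio of passage 1 to passage 2 (log axis) of 7 transcripts in each TS line, with exact 95% counting intervals. The 3 collagens lie left of 1 in TS line 1 and right of 1 in TS lines 2 and 3, while Fbln5, Postn and Thy1 stand far from 1 in TS line 2, at 10.1, 5.77 and 7.34.

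The 3 collagen transcripts kept to a narrower range of proportions than of levels. The ratio of Col1a1 to Col1a2 counts was 1.77 and 1.57 in TS line 1, 1.09 and 2.83 in TS line 2, and 2.26 and 2.54 in TS line 3, while Col1a1 itself ranged from 1.82 to 86.9 CPM. Col3a1 amounted to 0.0333 to 0.161 of the Col1a1 counts in these 6 libraries. Over all 14 libraries, on log2 CPM, Pearson's r between pairs of Col1a1, Col1a2, Col3a1 and Fbln5 lay between 0.868 and 0.909, which describes libraries that share 7 lines and takes in the step between lineages. Postn stood at 0.778 with Col1a1, 0.714 with Acta2 and 0.657 with Fbln5, and at 0.603 and 0.619 with the other collagens. Thy1 ranged from 0.489 to 0.622 with the collagens and stood at 0.685 with Fbln5. The lowest of the 21 pairs were Thy1 with Acta2 (-0.09) and Thy1 with Postn (0.10).

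Other genes of fibroblasts and matrix were read in the same pair of TS line 2 libraries. Over all genes with enough counts, 1.65% were at least 4-fold higher in passage 1 and 0.598% at least 4-fold lower, the background for each list in this pair. Of 19 other interstitial matrix genes with enough counts, 8 were at least 4-fold higher in passage 1 and 1 was at least 4-fold lower, with a median ratio of 2.93. The 8 included Col8a1, with 90 counts in passage 1 and 2 in passage 2, the matrix Gla protein Mgp (74 and 2), the proteoglycan biglycan, Bgn (127 and 5.03 CPM), and tenascin C, Tnc (91.4 and 5.52 CPM). Fn1 and Sparc, which are made by many cell types, had ratios of 2.93 and 1.74. Of 16 collagen assembly genes 3 passed 4-fold: the lysyl oxidase Lox (36.5 and 1.07 CPM), the prolyl hydroxylase P4ha3 (40 and 2 counts) and Loxl1. The general collagen chaperone Serpinh1 had a ratio of 1.09, and the median of the 16 was 1.19.

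The mesenchymal transcription factor Prrx1 had 14.9 and 2.22 CPM in passages 1 and 2 of TS line 2, and Twist1, Snai2 and S100a4 completed the 4 of 12 fibroblast transcription factor and surface genes past 4-fold; Pdgfrb stood at 1.00. Of 13 contractile genes 5 passed, among them Tagln (65.7 and 6.18 CPM), and of 12 TGF-beta and serum response targets 2 did, Thbs1 (489 and 27.4 CPM) and Ctgf (92.7 and 13.3 CPM). By contrast the 7 TS cell genes, among them Cdx2 and Elf5, had ratios of 0.700 to 1.31. Of 5 blood genes 1 passed, the macrophage lysozyme Lyz2 (25.6 and 0.659 CPM), while Csf1r, Cd68 and Laptm5 had ratios between 1.09 and 1.35. The 18 fibroblast transcription factor and surface genes summed to 236.9 to 360.9 CPM in XEN libraries, 92.7 to 393.3 CPM in TS libraries, highest in TS line 2 passage 1, and 98.9 to 160.9 CPM in ES libraries. The defining fibroblast proteoglycans Dcn and Lum had 6 counts and 1 count in that library. The part of RNA from other cells in these values was not tested.

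**Figure D4:**
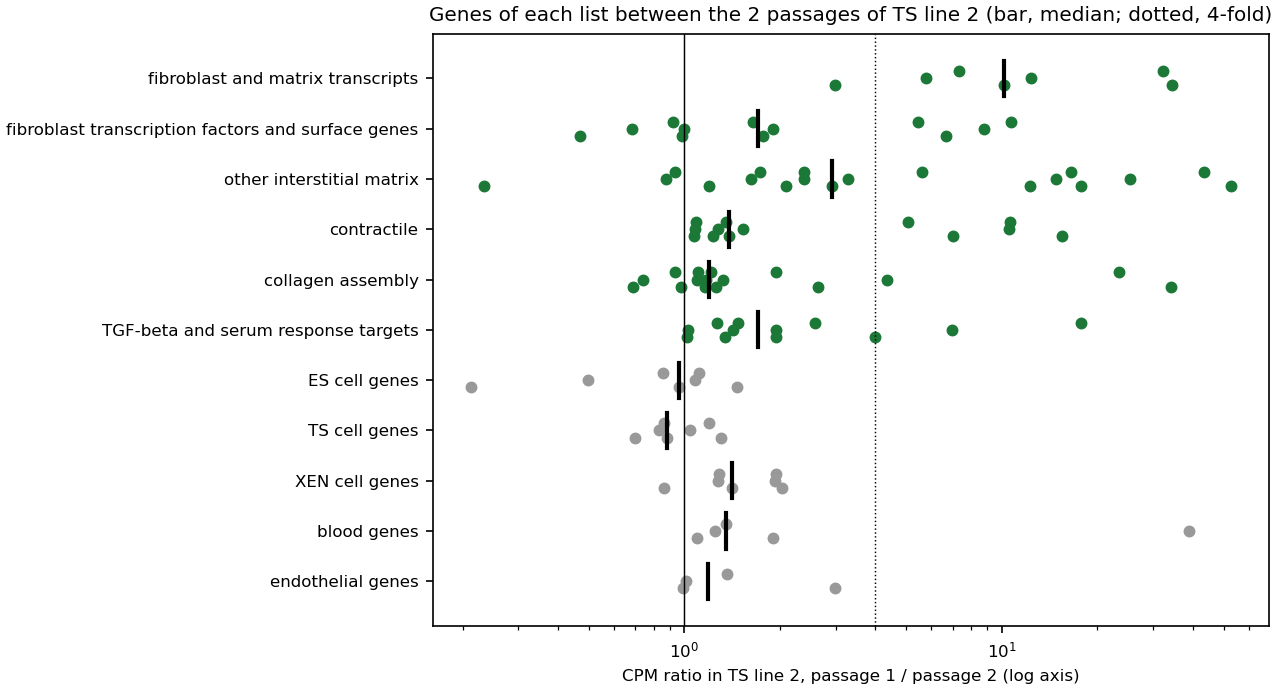
CPM ratio of passage 1 to passage 2 in TS line 2 (log axis) for genes with at least 10 counts in the 2 libraries, 1 point per gene in its list; bars mark list medians and the dotted line 4-fold. The fibroblast and matrix transcripts had a median of 10.1, the other interstitial matrix genes 2.93 and the TS cell genes 0.880. Medians were 1.71 for fibroblast transcription factor and surface genes, 1.705 for TGF-beta and serum response targets, 1.38 for contractile and 1.19 for collagen assembly genes.

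In TS line 1 a part of the other matrix genes, like the collagens, was higher in passage 2, where 0.98% of all genes with enough counts were past 4-fold. Of 18 other interstitial matrix genes 7 were at least 4-fold higher in passage 2, including Bgn (1.82 CPM in passage 1 and 20.3 CPM in passage 2) and Thbs2 (2 and 30 counts), and so were Prrx1 (7 and 71 counts), Lox (8 and 60 counts) and Thbs1 (8.61 and 102.7 CPM). In TS line 3, Prrx1, Lox and Mgp had ratios of 1.75, 1.11 and 1.21, with intervals that spanned 1, and Thbs1 had 2.66 (2.37 to 2.99).

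Taking lines as groups and passages as replicates, edgeR called 0 of the 7 tested transcripts between any 2 lines of a lineage, where the p-values measure only the spread between passages. The share of all genes called was 1.53% between TS lines 1 and 2, 20.2% between TS lines 1 and 3, 15.2% between TS lines 2 and 3, 7.84% between XEN lines 1 and 2, and 0.302% between ES lines 1 and 2. At an unadjusted p under 0.05, 2 transcripts differed between TS lines 1 and 2 (Col1a2, Fbln5), 1 between TS lines 1 and 3 (Acta2), 1 between TS lines 2 and 3 (Thy1), 1 between the XEN lines (Postn) and 0 between the ES lines. Of all genes, 13.0%, 34.0%, 30.9%, 23.0% and 7.75% had such a p in these comparisons, so each count of 1 of 7 lay below its background. DESeq2 called Acta2 alone, at -1.07 for TS line 1 against TS line 3 (adjusted p = 0.0327). Leaving out single libraries gave 4 further calls, each from a line with 1 library whose spread is assumed to equal that of the other lines: Acta2 without TS line 3 passage 2 (-1.39 for line 1 against line 3, adjusted p = 0.0437) and without TS line 2 passage 1 (-1.54 for line 2 against line 3, adjusted p = 0.0164), Thy1 without TS line 2 passage 2 (2.75 for line 2 against line 3, adjusted p = 0.0175), and Postn without XEN line 2 passage 2 (-5.27 for line 1 against line 2, adjusted p = 0.0117).

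In XEN lines the transcripts appeared in other combinations. Postn had 5 and 2 counts in XEN line 1 and 153 and 0 in XEN line 2, against 0 in all 4 ES libraries. Its presence in passage 1 of XEN line 2 came with 54 Col1a1 counts, where passage 2 had 0, and with 8 Dcn counts, but with only 2 of Col1a2 and 0 of Col3a1. Col1a2 was instead in XEN line 1, at 33 and 13 counts beside 11 and 3 of Col1a1. The ratio of Col1a1 to Col1a2 was accordingly 0.333 and 0.231 in XEN line 1 and 27.0 in passage 1 of XEN line 2. Prrx1 and Lox were at 0 in all 4 XEN libraries. In XEN line 1, passage 1 exceeded passage 2 in Col1a1 by 6.22-fold (1.64 to 34.7) and in Col1a2 by 4.30-fold (2.21 to 8.91), 2 of 3 transcripts with enough counts, where 1.33% of 12531 genes were past 4-fold. Both Postn and Col1a1 were past 4-fold between the passages of XEN line 2, of 3 transcripts with enough counts, as were 3.93% of 12279 genes. In the same library Fn1 stood at 856 CPM, against 91.0 CPM in passage 2, and the trophoblast factor Cdx2 at 7.89 CPM, against 0.553 CPM.

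Against ES lines, 3 of 7 transcripts were called in XEN lines, where 45.1% of all tested genes were; the median of the 7 was 0.62. Thy1 fell by a log2 value of 6.93 (SE 1.12, adjusted p = 0.00249): it had 0, 0, 0 and 2 counts in the XEN libraries, against 38, 33, 63 and 54 in the ES libraries. The size of that fall is uncertain at such XEN counts, and stood at -9.009 with passage 1 libraries alone and -5.785 with passage 2 libraries alone. Acta2 rose by 1.62 (SE 0.351, adjusted p = 0.00831). Postn passed (fitted 9.21, adjusted p = 0.0328) and was at least 27.8-fold higher by the 3-count floor, but 153 of its 160 XEN counts lay in 1 library, and without it the bound was 1.69-fold. Without that library, with TS line 2 passage 1 also left out, Postn stood at 4.66 (adjusted p = 0.103). Without XEN line 2 it stood at 5.49 (adjusted p = 0.117) and without TS line 3 at 9.25 (adjusted p = 0.0525). With ES line 1 or ES line 2 left out, which leaves a lone ES line assumed to vary like the other groups, 1 of the 3 calls remained. Col1a1 (0.62, adjusted p = 0.622), Col1a2 (1.70, adjusted p = 0.363) and Fbln5 (-1.06, adjusted p = 0.597) did not pass, and Col3a1 was at 0 in both groups.

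Against TS lines, 5 of 7 were called lower in XEN lines, where 20.3% of tested genes were called lower and 36.7% in either direction. Col3a1 and Fbln5, with 0 and 2 XEN counts, and Col1a2 passed the filter through TS libraries, so neither this count nor the median below carries weight of its own. Thy1 fell by 8.03 (SE 1.12, adjusted p = 0.00174), Fbln5 by 5.77 (SE 1.20, adjusted p = 0.00876), Col1a1 by 4.35 (SE 0.948, adjusted p = 0.0106) and Col1a2 by 4.47 (SE 1.28, adjusted p = 0.0303). So few XEN counts leave the fitted sizes of Thy1 and Fbln5 uncertain: Thy1 stood at -10.6 with passage 1 libraries alone and at -6.15 with passage 2 libraries alone. Col3a1, with 0 counts in all 4 XEN libraries, also passed (adjusted p = 0.00931) and was at least 46.7-fold higher in TS lines, or 23.3-fold without TS line 2 passage 1. Without TS line 2 passage 1 the Col1a2 difference was -2.97 (adjusted p = 0.0759) and the other 4 calls remained. Without XEN line 1 or without XEN line 2, with the lone XEN line assumed to vary like the other groups, 3 of the 5 calls remained. Fbln5 was not called without either one (adjusted p = 0.0610 and 0.0528). Col1a2 was also not called without TS line 2 (-3.37, adjusted p = 0.0764) or without ES line 1 or 2. The median of the 7 log2 differences was -4.47, against -0.02 over all tested genes. Postn, at 0.56 (adjusted p = 0.755), had no settled direction: it stood at -3.93 with passage 2 libraries alone (adjusted p = 0.0290).

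Among the other gene lists, XEN lines differed from this pattern in the machinery of collagen. Of 16 collagen assembly genes 11 rose and 4 fell in XEN against TS lines, among them P4ha1 (4.86), Serpinh1 (3.70), P4ha2 (3.89) and Plod2 (4.27), with a list median log2 difference of 2.08, where the median of all tested genes was -0.02; over all genes 16.4% were called higher and 20.3% lower. Of 18 other interstitial matrix genes 2 rose and 8 fell (median -1.45), with Sparc (3.38) and Vcan (3.52) higher and Col5a1 (-8.49) and Tnc lower. The summed level of the list was nonetheless highest in XEN libraries, at 11210 to 14470 CPM. It was 1563 to 3330 CPM in TS and 923.5 to 1768 CPM in ES libraries. Of 14 fibroblast transcription factor and surface genes 1 rose, Dpp4 (10.36), and 8 fell (median -3.99), among them Eng (-7.06), Twist2 (-9.13) and Ly6a (-5.28). The contractile list had 2 higher and 3 lower of 13 (median -0.60), near the 36.7% called over all genes, and the TGF-beta and serum response list 2 higher, Ctgf (5.26) among them, and 4 lower of 12 (median -0.31). Of 6 blood genes 0 rose and 4 fell (median -3.99), and of 5 endothelial genes 1 rose and 2 fell (median -0.85).

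Against ES lines, TS lines had 13 of 18 other interstitial matrix genes higher and 1 lower (median 3.42, against 0.02 over all tested genes, of which 21.3% were called higher and 20.0% lower), with Sparc (3.26), Bgn (8.01) and Tnc higher and Vcan (-3.39) lower. Of 14 fibroblast transcription factor and surface genes 5 rose, among them Prrx1 (9.65), Twist2 (6.50) and Pi16 (3.54), and 2 fell, Dpp4 (-3.46) among them (median -0.07). Of 13 contractile genes 9 rose, among them Tpm1 (3.71; median 3.43), 8 of 16 collagen assembly genes rose and 1 fell (median 1.66), and 7 of 12 TGF-beta and serum response targets rose, among them Cyr61 (4.43) and Thbs1 (7.28; median 1.29). Markers of other cell types were mixed. Of 6 blood genes 4 rose and 0 fell (median 3.34), and of 5 endothelial genes 2 rose and 1 fell (median 3.36). The summed levels overlapped in both lists. Blood genes ranged over 230.8 to 952.1 CPM in TS and 409.7 to 703.8 CPM in ES libraries. Endothelial genes ranged over 38.8 to 207.2 CPM in TS and 81.7 to 125.2 CPM in ES libraries. The part of such cells in the TS values was not tested.

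In XEN against ES lines, 12 of 16 collagen assembly genes rose and 3 fell (median 4.37, against -0.05 over all tested genes, of which 21.8% were called higher and 23.4% lower), among them Serpinh1 (6.54). Of 13 contractile genes 11 rose and 0 fell (median 1.65), among them Cnn2 (4.50). Of 18 other matrix genes 6 rose and 3 fell (median 0.05), of 14 fibroblast transcription factor and surface genes 2 rose and 5 fell (median -1.43), both near the 45.1% called over all genes, and of 12 TGF-beta and serum response targets 6 rose and 2 fell (median 1.38). Of 6 blood genes 1 rose and 2 fell (median -0.86), and of 5 endothelial genes 2 rose and 1 fell (median 3.59).

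Thy1 separated from the other fibroblast genes in its lineage order. Its lines ranked TS 2 (20.3 CPM), TS 1 (8.43), ES 2 (6.18), TS 3 (4.79), ES 1 (4.11), XEN 2 (0.0790) and XEN 1 (0), so ES and TS lines interleaved. In the TS libraries it had 6.61 and 10.3 CPM in line 1, 35.7 and 4.86 CPM in line 2 and 6.52 and 3.07 CPM in line 3, and the 4 ES libraries lay between 3.58 and 6.60 CPM, within the TS range. The 3 genes most like it over the 14 libraries, among 9371 with a mean log2 CPM of at least 3, were Sorl1 (Pearson's r 0.965), Ly6e (0.960) and B3gnt2 (0.959). Those for Fbln5 were Aebp1 (0.927), Lasp1 (0.922) and Pxn (0.917), and for Col1a1 Ubtd1 (0.906), Gkap1 (0.892) and Parp10 (0.883). Col3a1 was most like Sh3glb2 (0.841), Ccdc90a (0.824) and Tbcc (0.802), and Postn most like Pskh1 (0.863), 0610011F06Rik (0.849) and Mxra8 (0.849).

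Acta2 was present throughout, and its Pearson's r with the 3 collagens over the 14 libraries lay between 0.547 and 0.609. It had 63.0, 55.2, 84.6 and 90.0 CPM in the XEN libraries, 72.0, 74.1, 157.6, 52.7, 173.1 and 103.3 CPM in the TS libraries, and 32.3, 28.5, 29.8 and 29.0 CPM in the ES libraries, by line and passage. Every XEN and TS library lay above every ES library, a separation whose share over all genes was not counted. It averaged 73.2 ± 19.9 CPM in XEN lines (SD, n = 2), 105.5 ± 32.6 CPM in TS lines (n = 3) and 29.9 ± 0.724 CPM in ES lines (n = 2). Its highest library was TS line 3 passage 1, at 173.1 CPM, followed by TS line 2 passage 1, at 157.6 CPM; Col1a1 stood at 37.9 and 86.9 CPM in these libraries, its 2 highest values. XEN and TS lines overlapped, with a difference of -0.25 (SE 0.313, adjusted p = 0.570). The genes most like it were Acta1 (0.948), Capzb (0.936) and Zyx (0.935). Acta1, skeletal muscle alpha-actin, averaged 74.8, 86.2 and 48.0 CPM in XEN, TS and ES lines, and its coding sequence matched that of Acta2 at 85.4% of bases (968 of 1134). The general actin Actb, at 83.2% identity, stood between 1472 and 3097 CPM in these libraries. How reads shared by such paralogs were counted is not given in the sources used here, so the Acta2 level is uncertain. Actg2, the other smooth muscle actin, had at most 7.02 CPM in any line library.

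In the embryos, Acta2 was again present everywhere. It had 238.8, 173.7, 231.6 and 103.2 CPM in F1, F2, M1 and M2 of the null group, against 247.9 and 230.6 CPM in the heterozygous and 230.6 and 242.0 CPM in the wild-type embryos (female and male). Null F2 and M2 were the 2 lowest of the 8. Embryo cDNA was amplified and prepared with a different kit, so these levels are not set against those of the lines.

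A group of 6 among the 9 transcripts shared a pattern across the embryos. Dcn had 42 and 67 counts in null F2 and null M2, Lum 13 and 12, Col1a2 23 and 14, Col3a1 6 and 26, Col1a1 4 and 3, and Postn 2 and 2. All 6 were at 0 in null F1, null M1 and the 4 heterozygous and wild-type embryos, a pattern held at 1 count or more by 2.91% of 16999 genes with a count in any embryo. Dcn stood at 1.92 and 3.35 CPM in the pair, and the ratio of Col1a1 to Col1a2 counts was 0.174 and 0.214. Pooled over the null embryos, Dcn stood 44.0-fold above the 3-count floor of the Nanog-bearing embryos, or 22.9-fold without null M2. Its 109 counts all lay in 2 of the 4 null embryos, so these values are no bound on a difference between genotypes. The pattern was chosen after the values were seen.

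**Figure D5:**
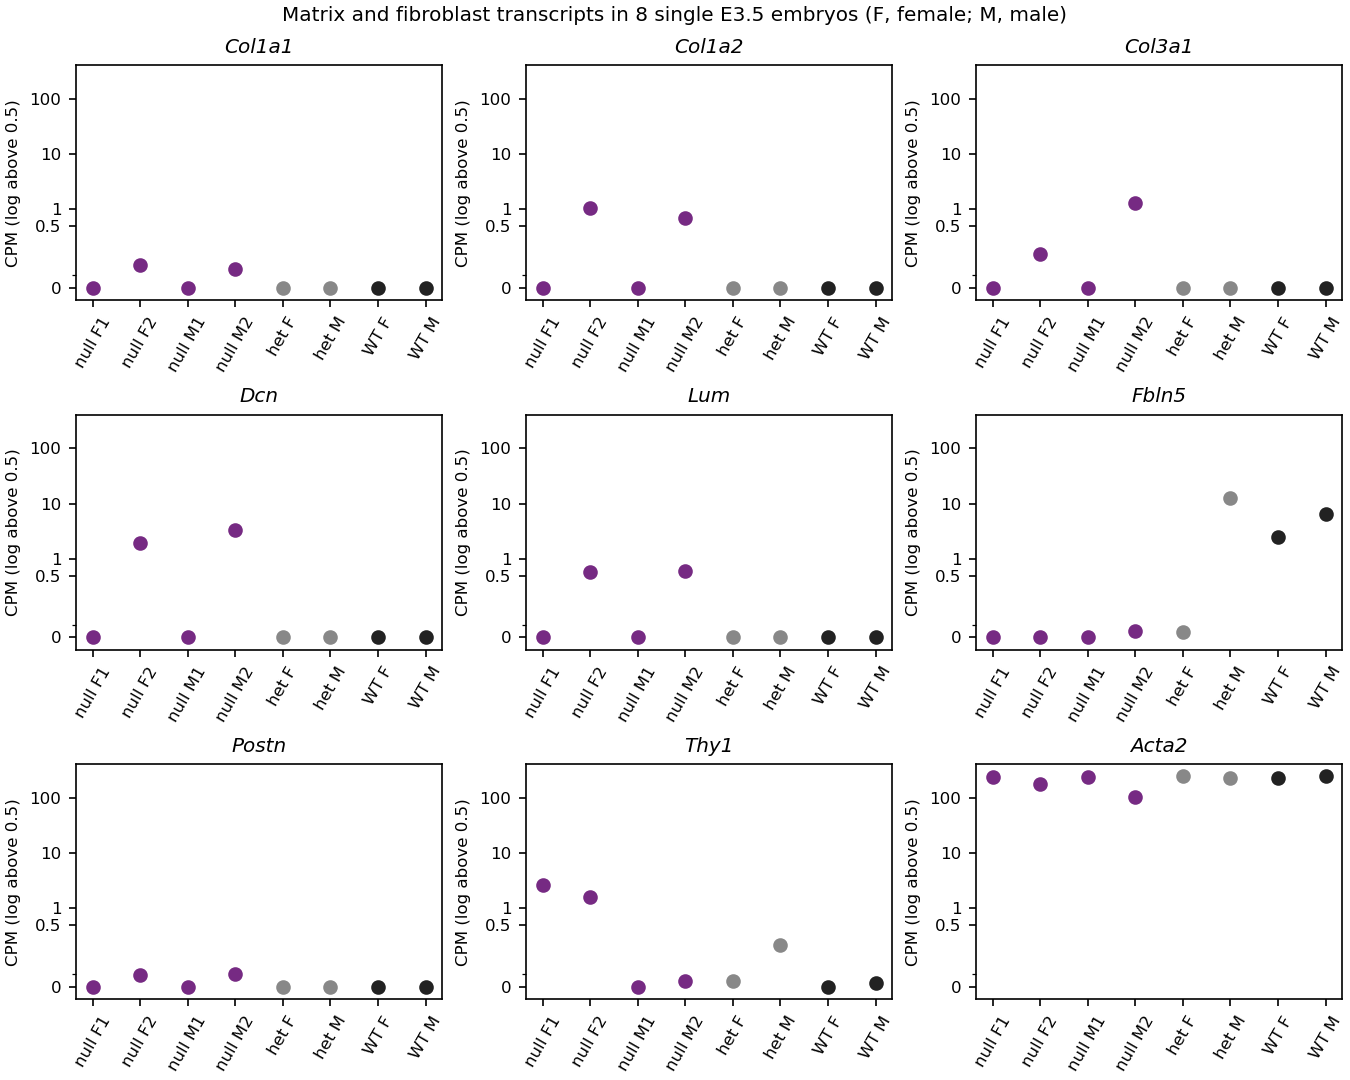
CPM (linear below 0.5, logarithmic above) of each of the 9 transcripts in the 8 single embryos. Dcn, Lum, Col1a1, Col1a2, Col3a1 and Postn are above 0 in null F2 and null M2 alone, Fbln5 is highest in heterozygous M at 12.7 CPM, and Acta2 lies between 103.2 and 247.9 CPM.

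Other genes marked the same pair of embryos. Of the 16999 genes, 87 (0.512%) had at least 5 counts in both null F2 and null M2 and 0 in the other 6, and 4 of the 9 transcripts were among them. The highest of the 87 were skeletal muscle genes: the fast troponin subunits Tnnc2 (606 and 1043 counts) and Tnnt3 (353 and 474), the myosin light chain Myl1 (220 and 347), myotilin, Myot (160 and 235), Tnni2 (93 and 136) and sarcolipin, Sln (81 and 138). The alpha-globin gene Hba-a1 stood at 5.71 and 4.10 CPM in this pair, against 0.248 CPM in wild-type M and 0 in the other 5 embryos. Other interstitial matrix genes at 0 numbered 2 of 24 in each of these 2 embryos and 9 to 16 in the other 6. Their summed level was not raised: 124.8 and 54.4 CPM in null F2 and M2, 105.1 and 109.0 CPM in null F1 and M1, and 228.9 CPM or more in the others. The TS cell genes summed to 2862 and 3180 CPM in null F2 and M2, against 8019 and 9314 CPM in null F1 and M1 and 6157 CPM or more in the others. Among 18 fibroblast transcription factor and surface genes, 8 and 10 were at 0 in the pair and 11 to 14 in the other embryos, but those above 3 counts numbered 7 in null F2 and 3 in null M2, against 4 or 5 in the others. The part of RNA from other tissue in these values was not tested.

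Fbln5 and Thy1 did not share this pattern. Fbln5 was counted 0, 0, 0 and 1 times among null embryos, against 1 and 188 in the heterozygous and 58 and 213 in the wild-type embryos; 1 heterozygous embryo thus lay within the null range. Thy1 had 43 and 36 counts in null F1 and F2 and 0 and 1 in null M1 and M2, against 1 and 5 in the heterozygous and 0 and 1 in the wild-type embryos. In edgeR's test of null against Nanog-bearing embryos with sex as a term, 0 of the 6 transcripts that passed the filter were called, where 0.0154% of 12965 genes were. The 6 were Dcn, Lum, Col1a2, Fbln5, Thy1 and Acta2; the first 5 passed through embryos in which they were high. Fbln5 stood at -8.04 (SE 2.34, adjusted p = 0.931) and Dcn at 7.92 (SE 3.20, adjusted p = 0.931), the 2 with an unadjusted p under 0.05, as 4.97% of all genes had. DESeq2 called Fbln5 (-7.49, adjusted p = 0.0296) and no other of the 9. Acta2 stood at -0.27 (adjusted p = 0.991) with all 8 embryos and at 0.03 (adjusted p = 0.988) without null F2 and M2.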

How the data were processed

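Gene counts for 22 RNA-seq libraries were analysed as deposited by the authors: 14 from 7 cell lines, made with the Illumina TruSeq RNA kit, and 8 from single embryos, made from SMARTer-amplified cDNA, per the labels' protocols. Per the submitters' processing notes, TopHat 1.3.1, edgeR and the mm9 genome were used; for the counting program, the annotation and strandedness, the setting is not given in the sources used here. The deposited list of regulated genes holds none of the 9 transcripts and was not used.

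Counts were tested with edgeR 4.0.16 (TMM scaling, filterByExpr, quasi-likelihood test, Benjamini-Hochberg adjustment over all tested genes, threshold 0.05) in R 4.3.3. Lineages were compared over lines, with passages summed and all 7 lines in 1 fit; lines of a lineage over passages, with all 14 libraries in 1 fit; null against heterozygous and wild-type embryos with sex as a term. The fits were tested on simulated counts with a common spread and with low-count genes left out. That check does not cover transcripts with few or no counts in a group. The SE given with an edgeR log2 fold change is its absolute value divided by the square root of the test's F statistic. CPM values are counts per 1000000 library counts. Passage ratios carry an exact Clopper-Pearson counting interval at the 95% level and were computed for genes with at least 10 counts in the 2 libraries. Intervals and the 3-count floor cover counting error only. Likeness used log2 CPM with a prior count of 2. Coding sequences were the longest reading frames of GENCODE vM21 transcripts, aligned with Biopython 1.88, and promoters came from RefSeq.

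The 9 transcripts and the gene lists were chosen with earlier results of these data known. Of each other list and lineage comparison, up to 4 called genes with the smallest p were named; for each tested transcript, the 3 most alike; some of the genes so chosen are not reported here. The genes named between passages and in the pair of embryos were picked after their values were seen. Alternatives were DESeq2 1.42.0, library totals without TMM, no filter, single libraries with a replicate block, each passage alone, no sex term, wild type alone and each replicate left out; leaving out TS line 2 passage 1, XEN line 2 passage 1 or null F2 and M2 was chosen after seeing the data.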

Additional observations from a re-analysis of the deposited data

Results flagged for a closer look

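Of 30 sets of values (a transcript in a group of 4 to 6 libraries, with some spread) 11 held a library whose gap to its neighbour exceeded Dixon's 95% limit; chance flags about 1 in 20 sets of normally distributed values. That rate does not apply to 4 of the 11 (Dcn and Thy1 in XEN, Lum in TS and Fbln5 in null libraries), where 1 library alone was above 0. Of the 11, 7 were in the 1 library TS line 2 passage 1, where Col1a2 stood at 79.8 CPM, Thy1 at 35.7 CPM, Col3a1 at 8.48 CPM, Fbln5 at 7.52 CPM, Postn at 7.13 CPM, Dcn at 0.578 CPM (6 counts) and Lum at 0.0964 CPM (1 count). Col1a1, at 86.9 CPM there, did not pass the limit.

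Another 2 were in XEN line 2 passage 1, Postn at 7.84 CPM (153 counts) and Dcn at 0.410 CPM (8 counts). The others were of 1 or 2 counts: Thy1 in XEN line 2 passage 2, at 0.158 CPM, and Fbln5 in null M2, at 0.05001 CPM. The libraries of a line are its 2 passages, so the sets hold fewer independent samples than libraries.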

How the results depend on the processing

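The direction of 5 lineage differences that did not pass the test was not settled. Col1a1 in XEN against ES lines (0.62) stood at -0.13 with the replicate block, -3.15 with passage 2 alone (adjusted p = 0.0374) and -1.50 without TS line 2 passage 1 and XEN line 2 passage 1. Postn in XEN against TS lines (0.56) stood at -0.71, -3.93 and -2.95, and Acta2 (-0.25) at 0.20 with passage 2 alone and 0.00625 without those 2 libraries. Passage 1 alone gave 2 calls among the transcripts in XEN against TS lines. With each line left out in turn, Col1a1 in XEN against ES lines ranged from -0.82 to 1.36, Col1a2 from -1.58 to 2.62 and Fbln5 from -1.96 to 3.02; in XEN against TS lines Postn ranged from -3.14 to 1.51 and Acta2 from -0.57 to 0.0542. The transcripts called then numbered 1 to 6 in TS against ES lines, 1 to 3 in XEN against ES lines and 3 to 5 in XEN against TS lines, and all genes called 2429 to 6233 in TS against ES lines and 3997 to 7646 in XEN against ES lines.

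DESeq2 called more genes between the ES lines (155, edgeR 44, no filter 82) and between TS lines 1 and 2 (504, edgeR 222). It also called more between null and Nanog-bearing embryos (84, edgeR 2, no filter 50). In the lineage comparisons it called 6776 genes in TS against ES lines (edgeR 6063), 7269 in XEN against ES lines (edgeR 6630) and 6156 in XEN against TS lines (edgeR 5385). DESeq2 called 1 of the transcripts between TS lines 1 and 3 and 1 in the embryos. With a library left out, genes called ranged from 18 to 42 between the ES lines, 82 to 107 between TS lines 1 and 2, 631 to 2049 between TS lines 1 and 3, 364 to 1337 between TS lines 2 and 3, 467 to 2542 between the XEN lines and 1 to 2 in the embryos, and 0 to 1 of the transcripts were called in each of the comparisons of TS lines 1 and 3, TS lines 2 and 3 and the XEN lines. Acta2 in the embryos stood at 0.0346 without null F2 and M2. Apart from the construction of these fits (fewer samples or genes), the cause was not tested.

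The passage numbers did not pair the lines: over 21 pairs of lines the correlation of deviations ran from -0.34 to 0.14, with 2 above 0.1. With the replicate block, 8025 genes and 5 transcripts were called in TS against ES lines, 8215 and 3 in XEN against ES lines, and 7275 and 4 in XEN against TS lines. Transcripts at 0 to 3 counts are limited by depth.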
